A study of Mus musculus with 18 samples.

Results

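Nascent RNA of 9 genes for red cell surface proteins was followed through fetal erythropoiesis. These are Gypc, Kel, Xk, Rhd, Ermap, Cd47, Icam4, Bcam and Art4, whose human counterparts carry blood group antigens or belong to the Rh and Kell complexes. They were taken by gene symbol from the deposited count table, in which each of the 9 has 1 row among 54232 listed genes (30157 with any count).

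All cells came from fetal livers of C57BL/6 embryos at e12.5-e13.5 and carried no engineered allele. Cells were sorted by the lineage panel (Lin, antibodies to CD41, CD45R, CD3e, CD11b and Ly-6G/6C), by CD71, the transferrin receptor, and by Ter119, a surface antigen of maturing red cells. The 5 Lin- erythroid populations were S0-Low (CD71 low in the titles and CD71- in the marker labels, Ter119-), S0-Medium (CD71 medium, Ter119-), S1 (CD71 high, Ter119-), S2 (CD71 high, Ter119 medium) and S3 (CD71 high, Ter119 high), and the sixth population was Lin+. After 6 h of rest all of them received 500 µM 4-thiouridine (4sU), a uridine analogue built into new RNA, for 45 min, and 4sU-labelled RNA was sequenced in 3 replicate libraries per population (18 in all). The study places stem and progenitor cells and burst-forming units in S0-Low, early and late colony-forming units in S0-Medium and S1, and maturing cells in S2 and S3. The study calls the erythroid replicates biological, and no source used here says which embryos or litters they came from, so the p-values measure the spread between these libraries.

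The red cell surface is built from protein complexes that hang on the membrane skeleton below it. The Rh polypeptide (Rhd) sits with the Rh-associated glycoprotein, Cd47 and Icam4 in a complex linked to ankyrin and band 3. Kel, a zinc endopeptidase, is held by a disulfide bond to the transporter-like protein Xk. Glycophorin C (Gypc) ties protein 4.1 and p55 to the membrane. Ermap and Art4 carry the human Scianna and Dombrock antigens, and Bcam, the Lutheran glycoprotein, binds laminin.

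The stretches upstream of 4 members are shown because they share a short motif that the choice of genes did not use. The motif AGATAA (or TTATCT on the other strand), a form of the site bound by GATA factors, was searched on both strands in the 250 bases before each start site of the RefSeq annotation of GRCm38.p6. It was present in 4 of the 8 members searched (Kel, Rhd, Icam4 and Art4) and in 9.99% of all 32851 start sites in the table. Gypc was not searched. Other forms of the GATA site were not searched or marked, so the count holds for these letters only. The stretches below run 5′ to 3′ on the gene's strand from 130 to 11 bases before the start site, and the capitals mark the motif. None of the 4 overlaps an annotated gene.

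Kel (chr6:41704336-41704455, minus strand): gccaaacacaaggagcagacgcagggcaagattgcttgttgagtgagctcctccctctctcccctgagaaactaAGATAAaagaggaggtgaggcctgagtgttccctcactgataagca
Rhd (chr4:134864406-134864525, plus strand): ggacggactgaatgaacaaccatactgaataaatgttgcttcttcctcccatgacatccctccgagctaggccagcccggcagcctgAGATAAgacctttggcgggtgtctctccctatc
Icam4 (chr9:21029302-21029421, plus strand): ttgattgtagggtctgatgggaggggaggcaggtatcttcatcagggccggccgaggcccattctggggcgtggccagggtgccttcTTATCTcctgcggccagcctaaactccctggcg
Art4 (chr6:136857611-136857730, minus strand): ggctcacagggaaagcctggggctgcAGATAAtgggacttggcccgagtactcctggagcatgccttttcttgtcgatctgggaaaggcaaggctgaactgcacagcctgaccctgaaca

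The motif began 43 bases before the start site in both Rhd and Icam4, where it lay on opposite strands, 56 bases before it in Kel and 104 bases before it in Art4. CCACNCCC, a form of the CACCC box bound by KLF factors, was found in Xk, Icam4 and Bcam (3 of 8) and in 15.9% of all start sites, TGANTCA in Kel (6.75% of all), TATAAA in Ermap (12.4%) and CAGCTG in Art4 (13%). No binding was measured in these libraries, and these matches are a description of the letters.

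Library totals ranged from 9452476 counts in S0-Low replicate 3 to 40567976 counts in S1 replicate 1. The next lowest total was 17978747 counts, in S3 replicate 1. Tfrc, which encodes CD71, was at 276.7, 398.4 and 419.5 CPM in S0-Low. S0-Low and S3 were told apart by their defining genes: the summed level of 6 erythroid markers (Tfrc, Klf1, Gata1, Epor, Alas2 and Slc4a1) was 485 to 928 CPM in S0-Low, 20832 to 34177 CPM in S3 and 262 to 349 CPM in Lin+. CPM here is the count per 1000000 counts of the library total after TMM scaling, which corrects totals for differences in composition. The labels call all cells erythroblasts, but Lin+ held 2712 to 5411 CPM summed over 5 granulocyte markers against 328 to 775 CPM in S0-Low and at most 1.49 CPM in S3. Replicate 3 had the highest level of all 8 tested members in S1 and in S2, of 7 in S0-Medium, of 6 in S0-Low and in Lin+ and of 5 in S3, and what a replicate number stands for is not given. In bulk RNA, fewer cells of a type and less RNA per cell cannot be told apart.

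From S0-Low to S3, the nascent RNA of 8 members rose. The fold ran from 3.66 for Cd47 to 82.2 for Rhd in the ratio of mean CPM (for Rhd, S0-Low replicate 3 raises the baseline), and in each of the 8 genes all 3 S3 libraries lay above all 3 S0-Low libraries. The ninth member, Bcam, had 0 counts in every S2 and S3 library. By edgeR's quasi-likelihood test on the 15 erythroid libraries, 8 of 8 tested members were higher in S3 at an adjusted p under 0.05, where 13.4% of the 16555 tested genes were. Ranges that did not overlap in this direction were seen in 16.6% of the tested genes. The members, and the gene lists below, were chosen with earlier results of these data known. Setting them against all tested genes is therefore a description and no independent support. The median log2 fold change was 3.90 over the 8 members and -0.54 over all tested genes.

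**Figure D1:**
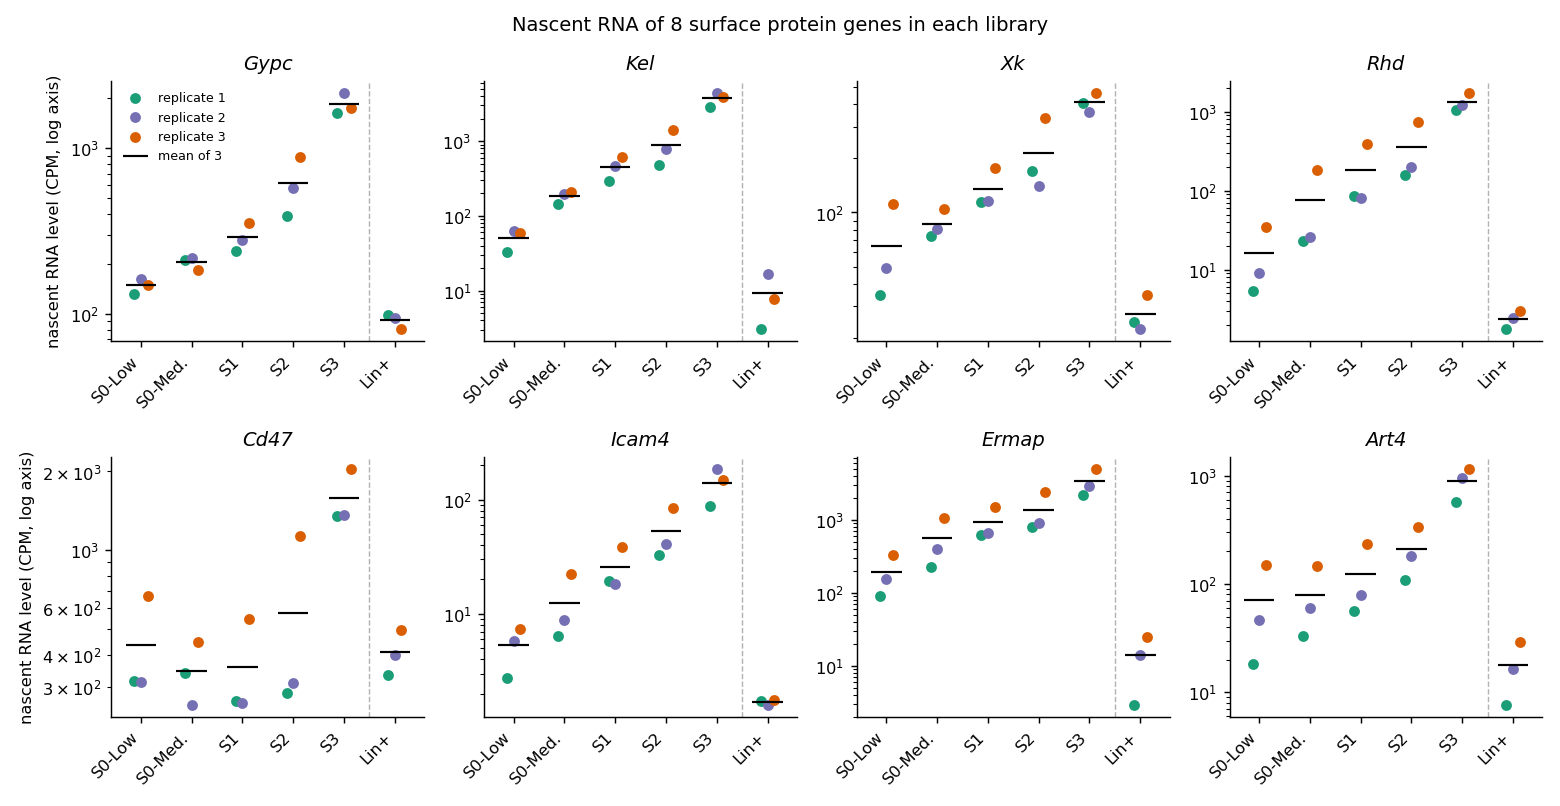
Nascent RNA level in CPM (log axis, a separate scale for each gene) in the 5 erythroid populations and Lin+. Points are single libraries coloured by replicate number and black lines are means of 3 replicates. All 8 genes were highest in S3, 7 of them climbed in mean at every step, and the mean of Cd47 lay between 347 and 434 CPM from S0-Low to S1. Leaving out a single library turned the sign of the fitted change from S1 to S2 for Rhd and Ermap. For Art4 it turned the sign from S0-Low to S0-Medium and from S0-Medium to S1.

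Kel (chromosome 6 of GRCm38 from 41686329 to 41704334) had 32.8, 61.9 and 58.3 CPM in the 3 S0-Low libraries. It had 142, 195 and 209 CPM in S0-Medium, 294, 467 and 605 CPM in S1, 481, 777 and 1417 CPM in S2 and 2882, 4417 and 3861 CPM in S3. Each step separated the libraries completely except S1 from S2, and replicate 1 was the lowest of its population throughout. Such upward separation was seen in 5.2%, 6.96% and 8.99% of all tested genes at these steps. Of the single steps, Kel passed edgeR's quasi-likelihood test from S2 to S3 only, and fits with the replicate number are given below. The log2 fold change of S3 against S0-Low was 6.19 ± 0.50 (SE, n = 3 and 3, adjusted p = 1.4e-06 by edgeR's quasi-likelihood test), a 72.9-fold ratio of mean CPM. In Lin+ the gene had only 3.03, 16.9 and 7.76 CPM, below every S0-Low library.

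Xk (chromosome X, 9272784 to 9313245), the partner of Kel in the membrane, moved less. It had 34.9, 49.4 and 111 CPM in S0-Low, 73.6, 80.7 and 104 CPM in S0-Medium, 114, 115 and 177 CPM in S1, 169, 140 and 334 CPM in S2 and 408, 365 and 464 CPM in S3. Replicate 3 of S0-Low lay above all of S0-Medium, and S1 and S2 overlapped. Between S0-Low and S3 it rose by 2.66 ± 0.44 on the log2 scale (adjusted p = 0.00034 by edgeR's quasi-likelihood test). The Xk locus overlaps H2al1m in the annotation, and 0.238% of its 31-base words are shared with other transcripts.

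Since Kel and Xk form 1 complex, their counts were also compared within each library, where scaling plays no part. The log2 ratio of Kel to Xk counts was -0.088, 0.33 and -0.93 in S0-Low, 0.95, 1.27 and 1.00 in S0-Medium, 1.37, 2.02 and 1.77 in S1, 1.51, 2.47 and 2.08 in S2 and 2.82, 3.60 and 3.06 in S3. It rose from a mean of -0.23 ± 0.64 (SD, n = 3) to 3.16 ± 0.40, a difference of 3.39 (two-sided exact permutation test, p = 0.1, and 3 libraries against 3 cannot give less). The ratio was higher in S3 than in S0-Low in 3 of 3 same-numbered pairs. In Lin+ it was -3.0, -0.40 and -2.16. These are ratios of counts per gene and not of molecules, since the summed exons of Kel (2773 bases) are shorter than those of Xk (5076 bases).

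**Figure D2:**
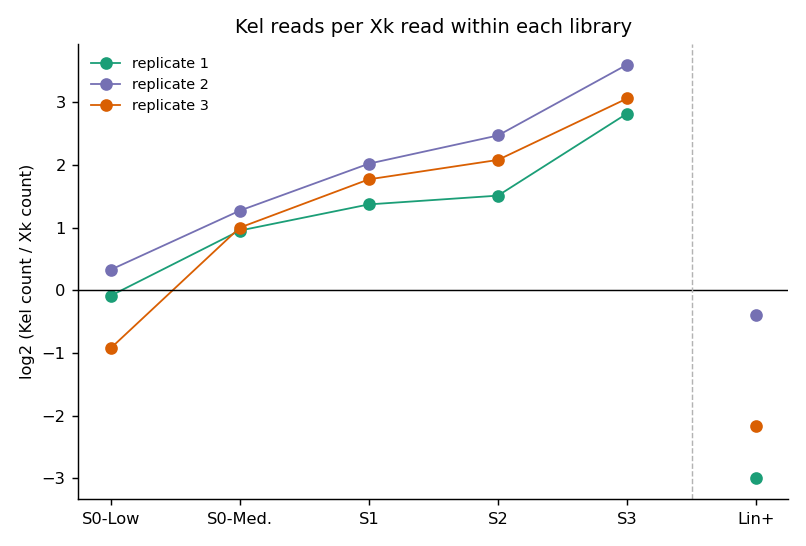
Log2 ratio of Kel counts to Xk counts (vertical axis) in each library of the 6 populations, with lines joining erythroid libraries of the same replicate number. The ratio lay between -0.93 and 0.33 in S0-Low and between 2.82 and 3.60 in S3.

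Rhd (chromosome 4, 134864536 to 134896172), the Rh polypeptide, started low and had a fold close to that of Kel. It had 5.43, 9.15 and 34.3 CPM in S0-Low, 22.9, 25.6 and 181 CPM in S0-Medium, 84.9, 79.8 and 391 CPM in S1, 156, 198 and 735 CPM in S2 and 1050, 1230 and 1738 CPM in S3. In each erythroid population replicate 3 was the highest, and in S0-Medium it stood above all of S0-Low and above S1 replicates 1 and 2. The log2 fold change of S3 against S0-Low was 6.37 ± 1.10 (adjusted p = 0.00051 by edgeR's quasi-likelihood test). It was 7.47 without S0-Low replicate 3 and at least 5.88 without any other single library. Lin+ held 1.75, 2.46 and 3.01 CPM.

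Icam4 (chromosome 9, 21029432 to 21030596), an adhesion molecule that binds integrins, rose at each step in mean. It had 2.77, 5.79 and 7.39 CPM in S0-Low, 6.44, 8.89 and 22.4 CPM in S0-Medium, 19.5, 18.15 and 38.7 CPM in S1, 33.0, 41.04 and 85.1 CPM in S2 and 87.6, 187 and 148.5 CPM in S3. Neighbouring populations overlapped up to S2 and did not overlap between S2 and S3. From S0-Low to S3 the log2 fold change was 4.74 ± 0.64 (adjusted p = 7.2e-05 by edgeR's quasi-likelihood test).

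Cd47 (chromosome 16, 49851328 to 49912503), which protects cells from phagocytosis by engaging SIRPα on macrophages, differed from the other tested members in that its mean did not climb from S0-Low to S1. It had 316, 314 and 671.5 CPM in S0-Low, 339, 256 and 446 CPM in S0-Medium, 266, 262 and 549 CPM in S1, 284.5, 310.5 and 1133 CPM in S2, 1349, 1369 and 2052 CPM in S3 and 333, 398 and 495 CPM in Lin+. The 4 populations from S0-Low to S2 and Lin+ overlapped one another, and the S3 libraries lay above all of them. The log2 fold change of S3 against S0-Low was 1.87 ± 0.52 (adjusted p = 0.012 by edgeR's quasi-likelihood test). This call was lost when libraries were scaled by their totals (0.98, adjusted p = 0.118), when S0-Low replicate 1 was left out (1.62, adjusted p = 0.0604) and when S0-Low replicate 2 was left out (1.62, adjusted p = 0.0617).

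Gypc (chromosome 18), the glycophorin of the set, rose with little spread early on. It had 132, 163 and 150 CPM in S0-Low, 212, 217 and 184 CPM in S0-Medium, 240, 279 and 355 CPM in S1, 390, 570 and 882 CPM in S2 and 1618, 2151 and 1746 CPM in S3. It was the only member whose libraries did not overlap at any of the 4 steps. Such upward separation was seen in 3.61% to 8.99% of all tested genes, depending on the step. Gypc passed edgeR's quasi-likelihood test only at the step from S2 to S3. In S3 it was higher than in S0-Low by 3.63 ± 0.33 on the log2 scale (adjusted p = 3.9e-06 by edgeR's quasi-likelihood test). Lin+ held 98.6, 94.8 and 80.5 CPM, nearer to S0-Low than for Kel, Rhd or Ermap.

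Ermap (chromosome 4, 119175457 to 119190013), an immunoglobulin-type membrane protein of erythroid cells, had 92.1, 154 and 334 CPM in S0-Low, 224.5, 402 and 1068 CPM in S0-Medium, 616, 657.5 and 1514 CPM in S1, 811, 898 and 2397 CPM in S2 and 2226, 2963 and 5067 CPM in S3. Replicate 3 was again the highest, and replicate 3 of S2 lay above replicate 1 of S3, so that Ermap was the single tested member with overlap between those 2 populations. The log2 fold change of S3 against S0-Low was 4.14 ± 0.70 (adjusted p = 0.00043 by edgeR's quasi-likelihood test), and 4.75 without S0-Low replicate 3. In Lin+ it had 2.90, 13.95 and 25.05 CPM.

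Art4 (chromosome 6, 136848451 to 136857600), a GPI-anchored protein of the ADP-ribosyltransferase family, had the most scattered S0-Low libraries beside Rhd, at 18.1, 46.9 and 148 CPM. It had 33.3, 60.4 and 145 CPM in S0-Medium, 56.5, 79.55 and 236 CPM in S1, 109, 182 and 339 CPM in S2 and 574, 962 and 1164 CPM in S3. All populations up to S2 overlapped their neighbours. Its rise from S0-Low to S3 was 3.66 ± 0.79 on the log2 scale (adjusted p = 0.0025 by edgeR's quasi-likelihood test). It was 4.745 without S0-Low replicate 3 and 3.14 without S0-Low replicate 1.

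Bcam (chromosome 7, 19756138 to 19770532) was close to absent. Its counts were 3, 26 and 0 in S0-Low, 3, 4 and 0 in S0-Medium, 4, 0 and 0 in S1, 0 in all 6 libraries of S2 and S3, and 7, 15 and 8 in Lin+. Too few libraries had counts for the gene to enter the test, and no fold is given for it. A count of 0 allows up to 3 counts per library, which is 0.178 CPM on average in S3, and covers counting error only, as PCR copies were not told apart by molecular identifiers.

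Icam4 and Bcam both carry immunoglobulin domains and both bind outside ligands, and within S3 libraries Icam4 had at least 386, 1385 and 861 times the counts of Bcam, taking Bcam at 3 counts. With 0.5 added to both counts, the log2 ratio of Icam4 to Bcam was 5.19 ± 2.19 (SD, n = 3) in S0-Low and 12.2 ± 0.93 in S3, a difference of 6.99 (two-sided exact permutation test, p = 0.1, again the lowest that can be reached). With Bcam at 0 in S3, the size of this difference is set in part by the added 0.5.

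**Figure D3:**
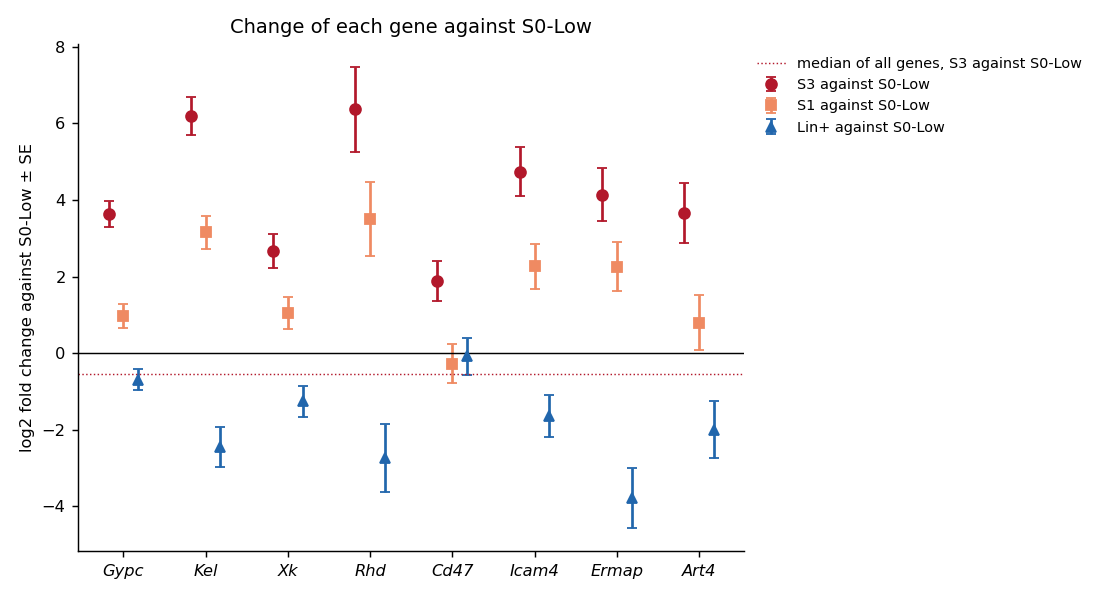
Log2 fold change against S0-Low with its standard error (vertical axis) for each of the 8 tested genes, in S3 (circles), S1 (squares) and Lin+ (triangles), n = 3 libraries a population. The dotted line marks the median of all genes in S3 against S0-Low, -0.54. The S3 values ran from 1.87 for Cd47 to 6.37 for Rhd, and every S3 value lay above the S1 value of the same gene. All 3 comparisons share the S0-Low libraries.

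The order of the genes changed over the series. Levels between genes were compared as mean CPM per kilobase of summed exons, from a gene annotation whose exon lengths may differ from those of the transcripts the authors counted. In S0-Low, Cd47 was the highest with 82.2, followed by Gypc with 63.6, Ermap with 36.5, Art4 with 28.3, Kel with 18.4, Xk with 12.8, Rhd with 10.2 and Icam4 with 5.86 CPM per kilobase. In S3 the order was Kel with 1341, Rhd with 840, Gypc with 788.5, Ermap with 645, Art4 with 357.5, Cd47 with 301, Icam4 with 156 and Xk with 81.2 CPM per kilobase. These are orders of means, and neighbours changed places between libraries. Gypc stood above Cd47 in S0-Low replicate 2 and above Rhd in S3 replicates 1 and 2, and Kel stood above Art4 in S0-Low replicates 1 and 2. In Lin+, Cd47 (77.4) and Gypc (39.2) stood above the other 6, which lay between 1.51 (Rhd) and 7.03 (Art4) CPM per kilobase.

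All 5 populations were next compared at once, and 8 of 8 tested members differed among them (edgeR's quasi-likelihood F-test over 4 contrasts, adjusted p from 2.1e-06 for Kel to 0.0093 for Cd47), against 24.6% of the tested genes. The timing was asked step by step. In S0-Medium against S0-Low, S1 against S0-Medium and S2 against S1, 0 of 8 members and 0% of the tested genes passed edgeR's test at an adjusted p under 0.05, although 539, 1135 and 667 genes had an unadjusted p under 0.05. By DESeq2 1, 0 and 0 members were higher, against 0.174%, 0.18% and 0.0309% of the genes it tested. Same-numbered libraries of neighbouring populations deviated together, and with the replicate number as a block Kel (1.87 ± 0.24, adjusted p = 0.033), Rhd (2.02 ± 0.36, adjusted p = 0.049) and Ermap (1.46 ± 0.23, adjusted p = 0.038) rose from S0-Low to S0-Medium, Kel was higher in S1 than in S0-Medium (1.27 ± 0.24, adjusted p = 0.037), and 0 members passed from S1 to S2. In these blocked fits 0.133%, 0.169% and 0% of all tested genes were higher. Libraries did not overlap in the upward direction for 2 of 8 members at the first of these steps (Gypc and Kel, against 5.2% of the tested genes), for 3 at the next (Gypc, Kel and Xk, against 6.96%) and for 1 at the last (Gypc, against 3.61%).

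From S0-Low to S1, which spans the Ter119- cells, Kel (3.15 ± 0.43, adjusted p = 0.0025) and Icam4 (2.26 ± 0.58, adjusted p = 0.046) were higher in S1 by edgeR's quasi-likelihood test, 2 of 8 members against 0.979% of the tested genes. Rhd (3.51 ± 0.97, adjusted p = 0.065) and Ermap (2.26 ± 0.65, adjusted p = 0.075) did not pass. Leaving out 1 library moved Rhd between 2.35 (without S1 replicate 3) and 4.59 (without S0-Low replicate 3). The values of Gypc (0.97), Xk (1.05) and Art4 (0.80) were smaller, and that of Cd47 was -0.28. With the replicate block 6 members were higher in S1, adding Gypc, Xk, Rhd and Ermap, against 2.81% of the genes in that fit. Without replicate 3 of every population 5 members were, adding Xk, Rhd and Ermap, against 1.72% of the genes. The call on Icam4 was lost on leaving out any 1 library of either population (adjusted p from 0.0847 to 0.210).

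**Figure D4:**
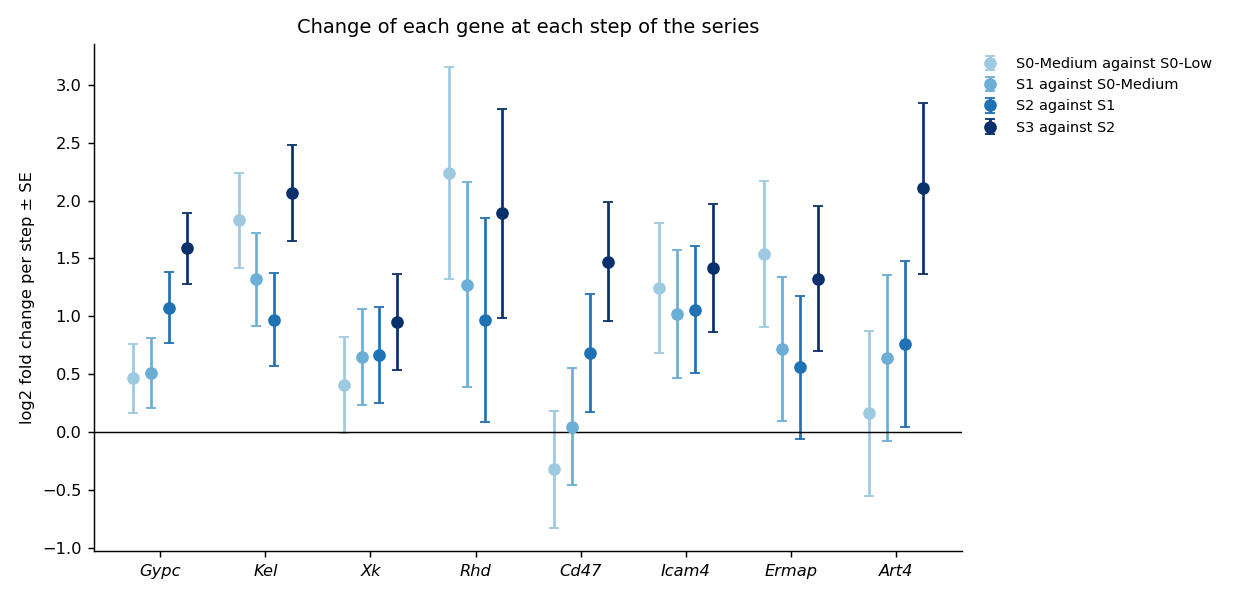
Log2 fold change with its standard error (vertical axis) at each of the 4 steps from S0-Low to S3 for the 8 tested genes, n = 3 libraries a population. The step from S2 to S3 had the largest value of the 4 for Gypc, Kel, Xk, Cd47, Icam4 and Art4, but by library totals this held for Gypc, Cd47 and Art4 and not for Kel, Xk or Icam4, and without replicate 3 of every population for all 8. Neighbouring steps share libraries.

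From S2 to S3, the last maturation step, the Ter119 level of the cells rose while CD71 stayed high. Gypc (1.59 ± 0.31, adjusted p = 0.0056) and Kel (2.07 ± 0.41, adjusted p = 0.0065) rose by edgeR's quasi-likelihood test, 2 of 8 members against 3.26% of the tested genes. The other 6 members had log2 fold changes from 0.95 (Xk) to 2.11 (Art4) with adjusted p from 0.084 to 0.194. Without S2 replicate 3 the values of Rhd (2.91), Cd47 (2.41) and Ermap (1.99) were larger, from 1.89, 1.47 and 1.33. With the replicate block, 8 of 8 passed in this step (7.3% of all genes were higher), as they did without replicate 3 of every population (7.33% of all genes), and without S2 replicate 3 alone 4 of 8 passed (4.8% of all genes). In a fit of only the 6 libraries compared 0 of 8 passed, with 0.63% of all genes higher, while Gypc (1.54) and Kel (2.02) kept their size. In 7 of 8 members, Ermap being the exception, every S3 library lay above every S2 library, against 8.99% of the tested genes.

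Whether the later stretch of the series, S1 to S3, added more than the earlier stretch, S0-Low to S1, was tested as the difference of the 2 log2 changes. By edgeR's quasi-likelihood test 0 of 8 members passed, against 1.01% of the tested genes. The difference was 1.69 ± 0.54 for Gypc (unadjusted p = 0.0065, adjusted p = 0.151) and 2.43 ± 0.93 for Cd47 (unadjusted p = 0.019, adjusted p = 0.226). It was -0.11 ± 0.69 for Kel and -0.65 ± 1.5 for Rhd, whose change was spread over both stretches. With the replicate block, Gypc (1.72, adjusted p = 0.030), Cd47 (2.51, adjusted p = 0.0083) and Art4 (2.17, adjusted p = 0.026) passed, against 6.64% of the tested genes. Without replicate 3 of every population, Gypc (2.04, adjusted p = 0.032) and Cd47 (2.62, adjusted p = 0.0064) passed, against 5.88%.

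The lineage-positive cells were set against both ends of the series. Against S3, 8 of 8 members were lower in Lin+ by edgeR's quasi-likelihood test on 18 libraries, where 14.1% of the 17755 tested genes were, with log2 fold changes from -1.96 ± 0.49 for Cd47 to -9.11 ± 1.18 for Rhd. By library totals, Cd47 did not pass (-1.13, adjusted p = 0.0599). Against S0-Low, Kel (-2.46 ± 0.52, adjusted p = 0.031) and Ermap (-3.79 ± 0.78, adjusted p = 0.027) were lower in Lin+, 2 of 8 members against 0.22% of the tested genes. With the replicate block Xk (-1.15), Rhd (-2.28) and Art4 (-1.77) were lower as well, where 0.648% of all genes were lower. Without S0-Low replicate 3 the unblocked values shrank to -0.64 for Xk, -1.60 for Rhd and -0.88 for Art4, from -1.26, -2.74 and -2.003. Both calls were lost on leaving out 1 library in most cases, since leaving out any of S0-Low replicate 2, S0-Low replicate 3, Lin+ replicate 1 or Lin+ replicate 3 left 0 members, and leaving out Lin+ replicate 2 left Kel. In these fits 0.0698% to 0.122% of all genes were lower, and the values stayed between -3.24 and -2.04 for Kel and between -4.51 and -3.14 for Ermap. Without replicate 3 of every population Rhd and Ermap passed and Kel did not (-2.24, adjusted p = 0.162). Cd47 was at -0.087 ± 0.48, and its sign turned with the block (0.016). S0-Low enters both this comparison and that of S3 with S0-Low. The part that the granulocyte, macrophage and megakaryocyte RNA of the Lin+ libraries plays in these differences was not tested. The summed macrophage markers (7 genes) were at 198 to 303 CPM in Lin+ and 33.4 to 53.4 CPM in S0-Low, and 6 of the 7 were at or under 3 counts in every S3 library.

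Levels of the members over all 18 libraries were much alike, Cd47 apart. Pearson's r of log2(CPM + 0.5) between pairs of the other 7 members lay between 0.831 (Gypc and Ermap) and 0.988 (Rhd and Icam4). Between Cd47 and those 7 it lay between 0.518 (Ermap) and 0.774 (Art4). The libraries fall into populations and share replicate numbers, so these values describe a common course and are given with no test.

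**Figure D5:**
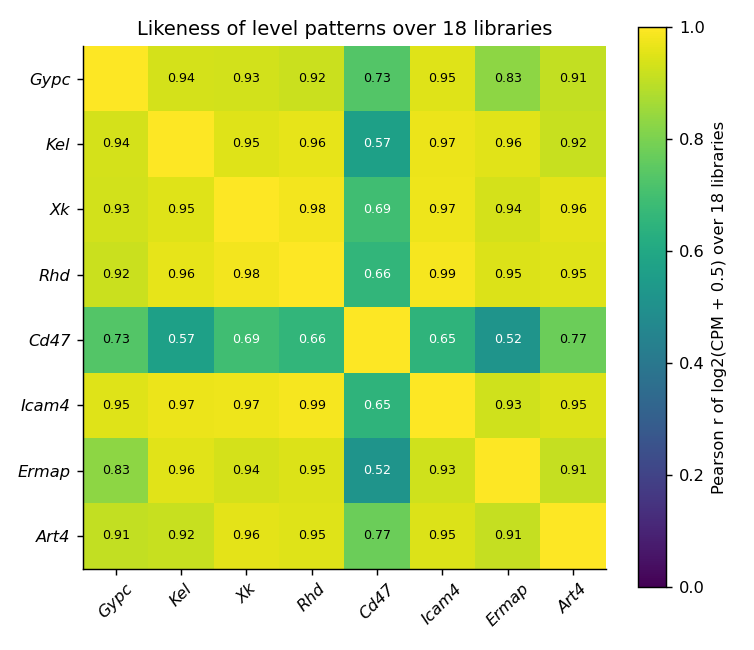
Pearson's r between the levels of each pair of the 8 genes, as log2(CPM + 0.5) over 18 libraries, on a colour scale from 0 to 1. The row and column of Cd47 hold the 7 lowest values, 0.518 to 0.774.

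Among 10336 genes with a symbol and a mean of at least 10 CPM in their highest population, globin genes left out, the pattern most like Kel over the 18 libraries was that of Ank1 (r = 0.985), which encodes ankyrin, though Ank1 (0.982) was not first by library totals. For Rhd the nearest genes were 6030468B19Rik (0.992) and Epb42 (0.991), which encodes protein 4.2, and for Icam4 Epb42 (0.992) and Prdx2 (0.991), a peroxidase abundant in red cells. Ermap was closest to Klf1 (0.987), an erythroid transcription factor, and Pkhd1l1 (0.972). Gypc was closest to Abcg2 (0.988), a porphyrin and drug exporter, and Slc43a3 (0.984), Xk to Ell2 (0.986) and Wnk4 (0.985), and Art4 to 1300017J02Rik (0.976). For Cd47 the nearest genes were Dstyk (0.980) and Dcaf12 (0.979), and by library totals Cmas took the first place (0.970). By library totals the nearest genes of Rhd were Epb42 and Blvrb (both 0.989), and Gypc, Xk, Ermap, Icam4 and Art4 kept their first gene.

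The list of other blood group proteins held genes that rose and genes that fell. Of 23 listed, 21 were tested in S3 against S0-Low, and 12 were higher, 4 lower and 5 did not pass, with a median log2 fold change of 1.96. Over all tested genes 13.4% were higher and 22.4% lower, so that the 4 falls are near the background share. The largest rise was that of Slc4a1 (10.05 ± 0.92, adjusted p = 3.9e-06), which encodes band 3, the anion exchanger that carries the Diego antigens. Rhag, the partner of Rhd, rose by 4.11 ± 0.33, and its mean level went from 81.9 ± 19.9 CPM (SD, n = 3) in S0-Low to 1419 ± 258 CPM in S3. Ackr1, the Duffy chemokine receptor, was at 0.18 CPM in S0-Low and 64.1 ± 23.7 CPM in S3. The smallest rise was that of Slc29a1 (1.69 ± 0.35), a nucleoside transporter. The 4 that fell were Emp3 (-4.46), Slc44a2 (-2.87), Abcc1 (-2.77) and Cd44 (-2.71), a hyaluronan receptor found on many leukocytes. Aqp1 (1.18), Slc14a1 (0.17), Cd151 (-0.45), Abcc4 (-0.67) and Sema7a (-5.69, adjusted p = 0.0965 by edgeR's quasi-likelihood test) did not pass. Sema7a was at a mean of 0.20 CPM in S0-Low and at 0 in every S3 library, so the size of its fall is not known. Abcb6 and Prnp, not tested, were listed at 0 in every library.

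In Lin+ against S3, 5 genes of the same list were higher and 11 lower, where 28.2% of all tested genes were higher and 14.1% lower. From S0-Low to S1, 5 were higher and 0 lower (Rhag, Slc4a1, Aqp3, Ackr1 and Slc29a1), against 0.979% and 1.95% of all tested genes. From S2 to S3, 5 were higher and 1 lower, against 3.26% and 6.09%. Against S0-Low, only Rhag was lower in Lin+ (-3.50 ± 0.38, adjusted p = 9.3e-05), 1 of 21 tested where 0.22% of all tested genes were lower. Blood group antigens made of sugars depend on glycosyltransferases, and of 8 such genes only 2 had counts enough to be tested between S3 and S0-Low. Gcnt2, which branches the I antigen, had 125, 66.7 and 176 CPM in S0-Low and 0, 0.05 and 0 CPM in S3 (adjusted p = 0.0001 by edgeR's quasi-likelihood test). It had 21.0, 3.13 and 5.84 CPM in S0-Medium and 53.0, 58.8 and 114 CPM in Lin+. The part of other cell types in this fall was not tested. B4galnt2 was at or under 2.96 CPM in every erythroid library and did not pass. Fut1, Fut2, Abo, A4galt, B3galnt1 and Gbgt1 were not tested.

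Of 8 genes for proteins that bind the members inside the cell or form the membrane skeleton, most rose. In S3 against S0-Low 7 of 8 were higher and 0 lower, where 13.4% of all tested genes were higher, with a median log2 fold change of 4.695. The values ran from 3.79 ± 0.29 for Add2, an adducin, to 8.0 ± 0.85 for Dmtn, dematin, and included Epb41 (4.21 ± 0.35) and Mpp1 (4.15 ± 0.32), which encode the protein 4.1 and p55 that bind Gypc. Vps13a, whose product is a lipid transfer protein that binds Xk, did not pass, with 173 ± 28.6 CPM in S0-Low and 176 ± 18.5 CPM in S3 (log2 fold change 0.025 ± 0.29, adjusted p = 0.954). By S1, 6 of these 8 were higher than in S0-Low, against 0.979% of all tested genes, and Epb41 (0.63, adjusted p = 0.329) and Vps13a did not pass.

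Genes for the ligands and receptors of the surface proteins fell or did not pass. Of 6 such genes 0 rose and 3 fell in S3 against S0-Low, with a median log2 fold change of -4.81, where 22.4% of all tested genes were lower. Sirpa, the receptor for Cd47, had 85.7, 50.9 and 61.9 CPM in S0-Low and 0 counts in every S3 library, at least 371-fold lower taking 3 counts in each S3 library, and 340, 272 and 365 CPM in Lin+. Thbs1, another Cd47 ligand, fell by 6.52 and had 963, 848 and 1115 CPM in Lin+. Itgav, an integrin bound by Icam4, fell by 5.59 on the log2 scale and had 80.4, 51.3 and 72.5 CPM in Lin+. The summed level of 5 stem and progenitor markers went from 953 to 1327 CPM in S0-Low to 1.38 to 10.7 CPM in S3, where the granulocyte markers were at most 1.49 CPM and the macrophage markers at most 4.37 CPM, and the part of other cell types in these falls was not tested. Itga4 (0.76), Itgb1 (-0.35) and Lama5 (-4.03, adjusted p = 0.072), a laminin chain bound by Bcam, did not pass.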

How the data were processed

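Nascent RNA was counted in 18 libraries, 3 for each of 6 sorted populations. The authors assigned reads with Kallisto 0.43.0 (the submitters' processing notes, which also name GRCm38) and deposited 1 column of estimated counts per library, in whole numbers without normalization. The transcript set and the treatment of introns are not given in the sources used here. Kallisto shares reads among near-identical transcripts, and 0 to 1.6% of the 31-base words of each member occur in other genes.

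Counts were scaled by TMM and tested with edgeR 4.0.16 in R 4.3.3 (filterByExpr, quasi-likelihood, two-sided, Benjamini-Hochberg over all tested genes), with 15 libraries for erythroid comparisons and 18 for Lin+. SE was taken from the F statistic. Alternatives were DESeq2 1.42.0, RLE factors, library totals, no filter, at least 10 counts in every compared library, a robust fit, globin genes left out, 6 or 18 libraries, the replicate block and each replicate left out. Leaving out replicate 3 throughout, and both alternatives for the tests over all 5 populations, were chosen after seeing the data. The code for edgeR was tested on simulated data first.

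Members and gene lists were chosen with earlier results of these data known. All members are named, with the largest, smallest and not passing changes of each list and 2 genes of like pattern per member, of which 2 are not reported here, nor in the list that held 1 of them. Replicate numbers come from the labels. Deviations of same-numbered libraries correlated at over 0.1 in every pair for 6 comparisons (lowest 0.170). For these, the members' blocked values are given where calls change, and the other gene lists were tested without the block. Deviations did not correlate at over 0.1 in every pair for S3 against S0-Low (lowest 0.081) or Lin+ against S3 (lowest 0.091). Exon lengths came from GENCODE M1, and coordinates and upstream sequences from RefSeq, GRCm38.p6.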

Additional observations from a re-analysis of the deposited data

How the results depend on the processing

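In S3 against S0-Low, 7 or 8 of 8 members passed under every alternative, as they did in Lin+ against S3, and all 8 passed with the replicate block in both. In S1 against S0-Low the 2 calls became 4 with DESeq2 or no filter, 6 with the replicate block, 5 without replicate 3 of every population, and 1 with RLE factors, library totals or at least 10 counts in every library, 1 on leaving out any single replicate, and 3 (Kel, Rhd and Icam4) with all 18 libraries. In S0-Medium against S0-Low the 0 calls became 1 with DESeq2 and 3 with no filter or the block, and in S1 against S0-Medium 1 with no filter or the block. In S3 against S2 the 2 calls became 5 with DESeq2, 6 with no filter, 8 with the block or without replicate 3 of every population and 0 with only the 6 libraries, and 2 to 4 without single replicates. In Lin+ against S0-Low they became 4 with no filter, 5 with the block, 0 with at least 10 counts, 1 with only the 6 libraries, and 0 to 2 without single replicates. For the later minus the earlier change, 0 became 3 with the block (Gypc, Cd47 and Art4) and 2 without replicate 3. The replicate block changed no other count of members, and the other gene lists were not tested with it. The share of all genes called moved as well, from 0.979% higher in S1 against S0-Low to 2.13% with DESeq2, 1.2% with no filter and 2.81% with the block, and from 3.26% higher in S3 against S2 to 8.5%, 2.89% and 7.3%. The cause of these moves was not tested.

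Signs turned only for log2 fold changes that did not pass. For Cd47 in S1 against S0-Medium it was -0.053 with DESeq2 and with RLE factors, -0.094 with library totals, -0.035 with the block and -0.18 without replicate 3 of every population. For Cd47 in Lin+ against S0-Low it was 0.016 with the block and 0.21 without replicate 3. Without single replicates, Cd47 ran from -0.40 to 0.23 in S1 against S0-Medium, from -0.27 to 0.37 in Lin+ against S0-Low, from -0.72 to 0.11 in S1 against S0-Low, from -0.57 to 0.12 in S0-Medium against S0-Low and from -0.27 to 1.12 in S2 against S1. Art4 ran from -0.060 to 1.86 in S1 against S0-Low, from -0.64 to 1.275 in S0-Medium against S0-Low and from -0.23 to 1.35 in S1 against S0-Medium, and in S2 against S1 Rhd ran from -0.065 to 2.14 and Ermap from -0.12 to 1.10. Of 1072 values of single members under alternatives, 974 kept direction and side of the threshold.

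Scaling by library totals moved the median of all genes in S3 against S0-Low from -0.54 to -1.36, and all member changes there should be read against that shift (by library totals they ran from 0.98 for Cd47 to 5.44 for Rhd). Counts limit what can be said of Bcam. The within-library ratios of Kel to Xk and of Icam4 to Bcam kept their direction with 0.1 or 5 counts added and without any single replicate.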
